A study of Mus musculus with 6 samples.

Results

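Messenger RNA levels of 10 S100 genes of wound and epidermis, S100a3, S100a4, S100a6, S100a7a, S100a8, S100a9, S100a10, S100a11, S100a14 and S100a16, were examined in mouse skin wounds 3 days after injury. The genes were taken by name: a probe counted where its RefSeq accession belongs to one of these symbols. All 10 had a probe, 12 probes in all, and all 10 were among the 16407 genes that could be tested. The wounds came from male mice of strain C57/BL6. There were 3 arrays of wild-type (WT) animals and 3 of FoxO1 +/- animals, which carry 1 disrupted copy of the transcription factor gene Foxo1, to ask what loss of that copy does to expression at the wound site. Punch wounds through the whole skin were made on the back, 4 per mouse, and the site was taken with a wider punch, so each sample holds wound bed, wound edge and adjoining skin. No unwounded skin was analysed here. The age of the animals, how the Foxo1 allele was disrupted and how the wounds of a mouse were pooled are not given in the sources used here, and p-values therefore measure the spread between these arrays. In such bulk tissue, fewer cells of a type and less RNA per cell cannot be told apart.

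S100 proteins are small calcium sensors built from EF-hand motifs. Most form dimers inside the cell, where calcium opens a surface that binds other proteins such as annexins, the cytoskeleton or enzymes. Several are released from stressed or activated cells and act as alarm signals on receptors such as Tlr4 and Ager. S100a8 and S100a9 form calprotectin, which fills the cytosol of neutrophils, is also made by keratinocytes at a wound edge, and withholds zinc and manganese from microbes. S100a7a is the mouse relative of human psoriasin, S100a3 is a protein of the hair cuticle, and S100a10 and S100a11 partner with annexins. By the reference gene table all 10 genes lie on chromosome 3, as does Foxo1. S100a14, S100a16, S100a3, S100a4, S100a6, S100a7a, S100a8 and S100a9 follow one another in that order among the other S100a genes of the cluster, and S100a11 and S100a10 lie next to each other beyond it.

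Levels below are log2 signals relative to the 75th percentile of the same array, so a value of 0 means a signal equal to that percentile. A level belongs to its own probe, and levels of different genes are not set against each other. FoxO1 +/- replicate 3 was the dimmest array, with a 75th percentile of 899 units against 1095 to 1299 on the remaining 5 and 64.3% of its spots flagged as clearly over background against 70.1% to 71.9%. Both Foxo1 probes were lower on all 3 FoxO1 +/- arrays, with log2 differences of -0.48 (SE 0.15) and -0.89 (SE 0.14). Among marker genes with a kept probe, 7 of 7 of basal keratinocytes, 16 of 16 of neutrophils and 13 of 13 of macrophages passed the scanner's background flag on each of the arrays, and so did all 10 S100 genes. No spot was saturated. The brightest S100 signal, that of S100a9 on WT replicate 2, was 452133 units, below the saturation value of 779477.

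In scaled levels the genotypes overlapped for each of the 10 S100 genes. Before scaling between arrays, all FoxO1 +/- signals lay below all WT signals for S100a3, S100a6, S100a11, S100a14 and S100a16. The remaining S100 genes overlapped then too. Every FoxO1 +/- array was also dimmer than every WT array by the percentile used for scaling. The share of all genes without overlap before scaling was not counted. All values that follow are of scaled levels. Average levels were higher in FoxO1 +/- wounds for 5 genes (S100a4, S100a6, S100a7a, S100a9 and S100a10) and lower for 5 (S100a3, S100a8, S100a11, S100a14 and S100a16), where 46.3% of all genes were lower, and with quantile normalization S100a6 and S100a10 moved to the lower side, at -0.04 and -0.07, which made 7 of 10 lower against 54.5% of all genes. The split also moved with single arrays. Without FoxO1 +/- replicate 3, 8 of the 10 were lower (47% of all genes) and their median log2 difference was -0.10, and without WT replicate 2, 3 of the 10 were lower (43.5% of all genes) and the median was 0.16. None passed an adjusted p of 0.05 in limma (0.840 to 0.998 over all genes tested), and none had an unadjusted p under 0.05. Over all genes 0.00609% passed the adjusted threshold and 6.25% the unadjusted one, 3.43% higher and 2.83% lower, so 0 of 10 is close to what the whole table gives. Groups without overlap occurred for 6.9% of all genes upward and 4.57% downward. The median log2 difference of the 10 genes was 0.00, against 0.01 over all genes tested. With quantile normalization these medians were -0.13 and -0.01. The median size of the difference, regardless of sign, was 0.15 for the S100 genes and 0.09 for all genes.

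The 95% intervals say how large a genotype difference these arrays leave room for. Without S100a3, whose interval is very wide, the lowest bound among the S100 genes was 0.652 of the WT level, for S100a14, and the highest was 2.06 times the WT level, for S100a7a. The lowest upper bound was 1.1 times, for S100a16. An exact two-sided permutation test of 3 against 3 arrays cannot give a p under 0.1, and it gave 0.2 for S100a4 to 0.8 for S100a8 and S100a10.

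**Figure D1:**
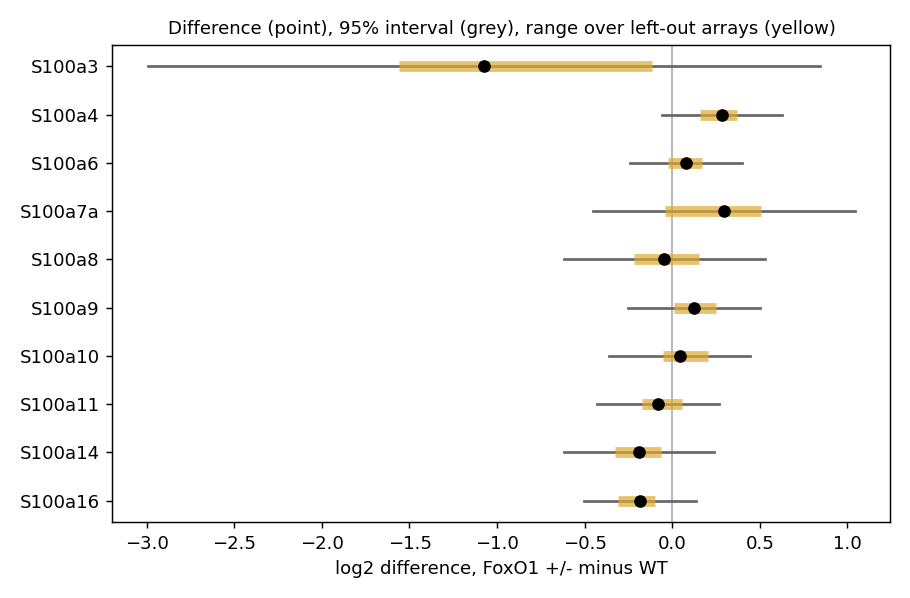
Log2 difference (FoxO1 +/- minus WT, x axis) of each S100 gene. Points are the limma estimates from 3 arrays per genotype, grey lines their 95% intervals, and yellow bars the range when each array is left out in turn; all 10 grey lines cross 0, and S100a3 has the widest, from -2.99 to 0.84.

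Animals of the same genotype differed from one another. The span from the lowest to the highest of the 6 arrays was 0.44 to 3.27 log2 units. By its brightest kept probe, each of the 10 genes spanned more than the median gene (0.38). The second S100a16 probe spanned 0.37, just under that median. Spans also depend on the scaling between arrays. S100a6 spanned 0.34 log2 units over the FoxO1 +/- arrays, where its signals before scaling were 261819, 259918 and 264045 units. Within the FoxO1 +/- group all 10 genes were highest on replicate 3, and the same held with quantile normalization; before any scaling between arrays it held for 7 of them, all but S100a3, S100a10 and S100a11. Replicate 3 was the highest of its group for 40.0% of all genes tested, 34.8% with quantile normalization and 6.19% without scaling. Within the WT group 6 genes (S100a4, S100a6, S100a8, S100a9, S100a10 and S100a11) were highest on replicate 2 and 4 (S100a3, S100a7a, S100a14 and S100a16) on replicate 1, a division that was the same under all 3 scalings. Replicate 2 was the highest WT array for 41.0% of all genes and replicate 1 for 36.1%.

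**Figure D2:**
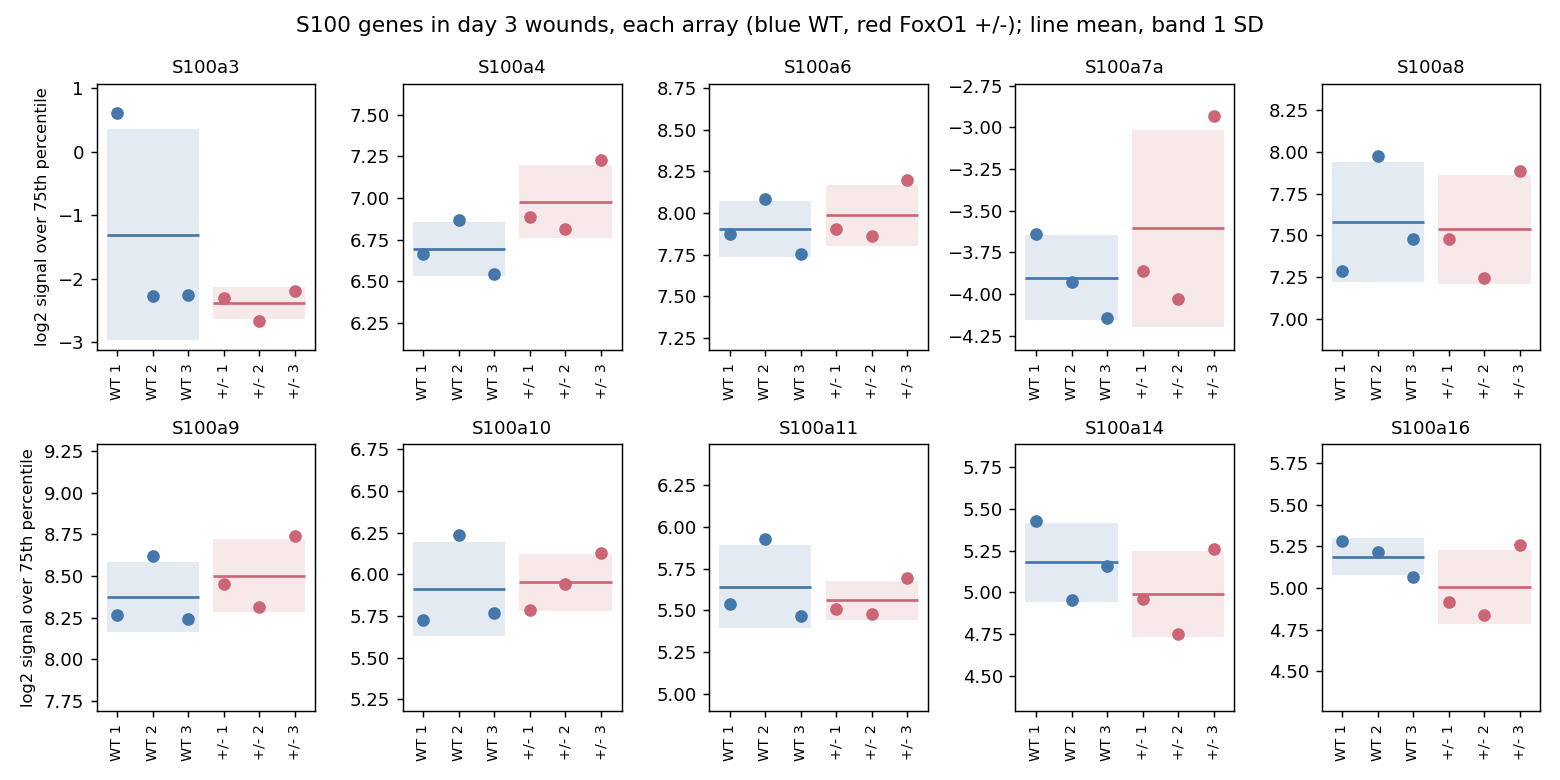
Level of each S100 gene (y axis, log2 signal over the array's 75th percentile) on the 6 arrays (x axis; blue WT, red FoxO1 +/-). Lines are group means and bands 1 SD (n = 3). The y axis spans the same range in every panel except that of S100a3, where it is wider, and the groups overlap in every panel.

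S100a8, the calprotectin subunit that neutrophils and activated keratinocytes make, was at 7.29, 7.98 and 7.48 on WT replicates 1, 2 and 3, and at 7.48, 7.24 and 7.89 on FoxO1 +/- replicates 1, 2 and 3. S100a9, its partner, was at 8.26, 8.62 and 8.24 in WT and at 8.45, 8.31 and 8.74 in FoxO1 +/- wounds. WT replicate 2 and FoxO1 +/- replicate 3 were the 2 highest arrays for both subunits, in opposite order, and the other 4 lay lower. With quantile normalization the same 2 arrays were highest, but WT replicate 2 came first for both subunits. Before scaling between arrays, WT replicate 2 came first and WT replicate 3 second for both. Group means were 7.58 ± 0.36 (SD, n = 3) and 7.54 ± 0.33 (SD, n = 3) for S100a8, a difference of -0.04 (SE 0.23, 95% interval -0.62 to 0.53). For S100a9 they were 8.37 ± 0.21 (SD, n = 3) and 8.50 ± 0.22 (SD, n = 3), a difference of 0.13 (SE 0.15, 95% interval -0.25 to 0.50). Leaving out WT replicate 2 moved the S100a8 difference to 0.15, and leaving out FoxO1 +/- replicate 3 moved it to -0.22. S100a8 varied more than its partner from animal to animal: WT replicate 2 was 1.62 times WT replicate 1 for S100a8 and 1.28 times for S100a9, and FoxO1 +/- replicate 3 was 1.57 times replicate 2 for S100a8 and 1.35 times for S100a9. These folds are of scaled levels. Before scaling, FoxO1 +/- replicates 3 and 2 were closer, at 213000 and 169352 units for S100a8 and at 384300 and 355391 for S100a9.

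The neutrophil marker list, which leaves out both subunits, had 16 of 17 genes tested, all well above background on every array. Its mean level was 0.02, 1.00 and 0.57 on WT replicates 1, 2 and 3, and 0.66, 0.58 and 0.74 on the FoxO1 +/- arrays. As with S100a8, the highest array was WT replicate 2 and the next FoxO1 +/- replicate 3. Its summed signal, in multiples of the 75th percentile, was 116 to 194 in WT and 157 to 169 in FoxO1 +/- wounds. The list of wound-edge keratinocyte markers, 10 of 10 tested, had a mean level of 5.46, 5.42 and 5.05 in WT and 5.31, 5.21 and 5.83 in FoxO1 +/- wounds, highest on FoxO1 +/- replicate 3, and a summed signal of 1275 to 1592 and 1240 to 1836. In the neutrophil list Camp, for the antimicrobial peptide cathelicidin, was the 1 gene with an unadjusted p under 0.05, a difference of 0.70 (SE 0.25, limma adjusted p 0.776), and Prtn3, for proteinase 3, followed at -0.29 (SE 0.12). In the wound-edge list it was Il1f6, an interleukin-1 family cytokine, at 1.04 (SE 0.38, limma adjusted p 0.781), followed by Krt17 at -0.61 (SE 0.27). Each list thus had 1 gene under the unadjusted threshold that 6.25% of all genes met. The part of either cell type in the calprotectin levels was not tested, and neither was whether the genes of a list are made by that cell type alone.

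**Figure D3:**
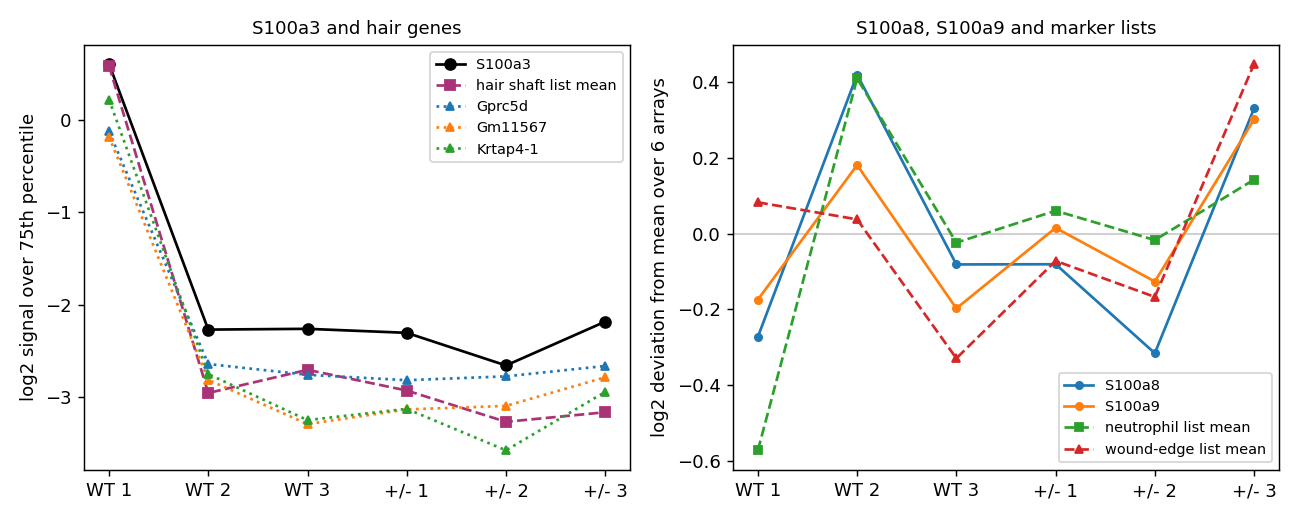
Left, S100a3, the mean of the hair shaft list and the 3 genes nearest to S100a3 (y axis, log2 signal over the 75th percentile) on the 6 arrays (x axis); all stand highest on WT replicate 1. Right, S100a8, S100a9 and the means of the neutrophil and wound-edge keratinocyte lists as log2 deviation from their own mean over the arrays; S100a8 and the neutrophil list are highest on WT replicate 2, and the wound-edge list on FoxO1 +/- replicate 3.

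The RefSeq promoter windows of S100a4, S100a6, S100a8 and S100a9 are shown because S100a9 was, of the other members, the one nearest in profile to each of S100a4, S100a6 and S100a8. The root mean square distance between profiles, each centred on its own mean over the 6 arrays, was 0.093, 0.059 and 0.14 log2 units. S100a4 and S100a8 were not close to each other, at 0.23, where the median distance from S100a4 to all genes tested was 0.24. Each window holds 250 bases before and 50 after the annotated start on build GRCm38.p6. They are at chr3:90603520-90603819 (plus strand), chr3:90612644-90612943 (plus strand), chr3:90668821-90669120 (plus strand) and chr3:90695672-90695971 (minus strand), each read 5′ to 3′ along its gene. Capitals mark matches, on either strand, to TATAAA or to TTGCNNAA, a form of the C/EBP motif.
S100a4: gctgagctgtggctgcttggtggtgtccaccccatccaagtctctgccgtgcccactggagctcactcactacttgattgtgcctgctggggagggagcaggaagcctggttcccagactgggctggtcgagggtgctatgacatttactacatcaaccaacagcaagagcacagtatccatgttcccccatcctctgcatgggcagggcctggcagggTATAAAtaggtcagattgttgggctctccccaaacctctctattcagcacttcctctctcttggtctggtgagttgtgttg
S100a6: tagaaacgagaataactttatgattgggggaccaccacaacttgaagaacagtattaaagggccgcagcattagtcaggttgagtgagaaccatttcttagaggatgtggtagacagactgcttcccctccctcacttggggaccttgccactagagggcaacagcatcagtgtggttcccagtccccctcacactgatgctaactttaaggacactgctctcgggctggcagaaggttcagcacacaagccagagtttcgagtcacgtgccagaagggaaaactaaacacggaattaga
S100a8: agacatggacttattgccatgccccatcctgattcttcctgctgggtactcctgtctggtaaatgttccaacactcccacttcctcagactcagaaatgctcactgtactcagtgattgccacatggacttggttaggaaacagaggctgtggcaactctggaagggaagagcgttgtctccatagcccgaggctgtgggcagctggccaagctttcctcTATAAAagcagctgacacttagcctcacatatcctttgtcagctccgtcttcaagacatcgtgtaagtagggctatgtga
S100a9: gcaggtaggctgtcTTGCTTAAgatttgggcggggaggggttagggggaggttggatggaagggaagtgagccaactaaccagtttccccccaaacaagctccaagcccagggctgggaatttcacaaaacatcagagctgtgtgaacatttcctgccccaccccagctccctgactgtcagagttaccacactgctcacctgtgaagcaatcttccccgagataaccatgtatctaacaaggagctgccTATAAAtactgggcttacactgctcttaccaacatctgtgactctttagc

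TATAAA lies from base -31 to -26 of the annotated start in S100a4 and from -30 to -25 in S100a8, the usual place of a TATA box. In S100a9 it lies on the first 6 bases after the annotated start, and the S100a6 window has none. Of all 32851 promoter windows in the table, 13.6% hold TATAAA on either strand. S100a9 also has TTGCTTAA from -236 to -229, a match to TTGCNNAA, which 10.8% of all windows hold. GTAAACA, a FoxO binding motif searched on both strands, is in 3.65% of all windows and in none of the 12 windows of the 8 S100 genes that the table lists. TGANTCA, a loose form of the AP-1 motif with any base at its centre, was searched on both strands and is in 7.81% of all windows. It occurs at 2 places in the S100a11 window, both as TGAGTCA, and once in 1 of the 2 S100a16 windows, as TGAATCA. These matches describe letters in the windows and are no measure of binding.

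S100a10, which holds annexin A2 at the cell membrane, was at 5.72, 6.24 and 5.77 in WT wounds and at 5.79, 5.94 and 6.13 in FoxO1 +/- wounds. S100a11, which binds annexin A1 and is built into the cornified envelope of keratinocytes, was at 5.54, 5.93 and 5.47 in WT and at 5.51, 5.48 and 5.70 in FoxO1 +/- wounds. Both were highest on WT replicate 2 with FoxO1 +/- replicate 3 next. With quantile normalization this order held for S100a10, but for S100a11 WT replicate 1 came next. Before scaling between arrays, S100a11 had its lowest signal on FoxO1 +/- replicate 3, at 46600 units. S100a10 differed between genotypes by 0.04 (SE 0.17, 95% interval -0.36 to 0.45) and by -0.07 with quantile normalization, and S100a11 by -0.08 (SE 0.14, 95% interval -0.43 to 0.27) and by 0.06 without WT replicate 2. Anxa2, the partner of S100a10, stood out on the same 2 arrays, at 8.32 on WT replicate 2 and 8.35 on FoxO1 +/- replicate 3 against 7.96 to 8.04 on the other 4. These levels are scaled, and FoxO1 +/- replicate 3 was the dimmest array. Before scaling, S100a10 was at 62845 units there, below FoxO1 +/- replicate 2 (68735) and WT replicate 3 (70892). Profile distances were computed on the scaled levels only. The profile distance between S100a10 and Anxa2 was 0.097, where the median distance from S100a10 to all genes tested was 0.22, and 1.77% of all genes were at least as near. For S100a11 and Anxa1 it was 0.14 against a median of 0.20, with 16.4% of all genes at least as near.

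S100a6, a calcium sensor of proliferating cells that binds Cacybp, was at 7.88, 8.08 and 7.75 in WT and at 7.90, 7.86 and 8.20 in FoxO1 +/- wounds. Its profile and that of S100a9 were the nearest to each other among the 10 genes, at a distance of 0.059. The genotype difference of S100a6 was 0.08 (SE 0.13, 95% interval -0.24 to 0.40), and it was -0.04 with quantile normalization and -0.02 without FoxO1 +/- replicate 3. S100a6 and its partner gene Cacybp were 0.15 apart, against a median of 0.19 to all genes, and 26.4% of all genes were at least as near. S100a4, also called fibroblast-specific protein and carried by fibroblasts and leukocytes, binds non-muscle myosin. It was at 6.66, 6.87 and 6.55 in WT and at 6.89, 6.82 and 7.23 in FoxO1 +/- wounds. Its distance to Myh9, the gene of a non-muscle myosin heavy chain, was 0.22 against a median of 0.24, with 37.1% of all genes at least as near.

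Of the 10 genes S100a4 had the smallest p for genotype. It averaged 6.69 ± 0.16 (SD, n = 3) over the WT arrays against 6.98 ± 0.22 (SD, n = 3) over the FoxO1 +/- arrays, a difference of 0.29 (SE 0.14, 95% interval -0.06 to 0.63, limma adjusted p 0.840). WT replicate 2, at 6.87, lay within the FoxO1 +/- range. The second S100a4 probe differed by 0.21 (SE 0.16). The difference of the first was 0.13 with quantile normalization, 0.16 without FoxO1 +/- replicate 3 and 0.20 within slide row 1, where FoxO1 +/- replicate 1 is the only array of its genotype. The fibroblast marker list, with 11 of 11 genes tested and all above background, had mean levels near 5.6 on all WT arrays and of 5.62, 5.80 and 5.71 in FoxO1 +/- wounds. Its summed signal was 1440 to 1511 in WT and 1507 to 1679 in FoxO1 +/- wounds, and in the macrophage list, 13 of 15 genes tested, it was 398 to 416 and 433 to 462. The mean levels of the macrophage list were 4.05, 3.91 and 3.97 in WT and 4.18, 4.21 and 4.02 in FoxO1 +/- wounds. By these means the genotypes overlapped, with WT replicate 1 above FoxO1 +/- replicate 3. The macrophage list had 2 genes of 13 with an unadjusted p under 0.05 (6.25% of all genes), Ms4a7 with a difference of 0.35 (SE 0.13, limma adjusted p 0.758) and Lyz2, for lysozyme, with 0.25 (SE 0.10, limma adjusted p 0.798). The fibroblast list had none, and its smallest p-values belonged to the collagen gene Col3a1, at 0.16 (SE 0.09), and the surface glycoprotein gene Thy1, at -0.18 (SE 0.09). Their part in the S100a4 level was not tested.

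**Figure D4:**
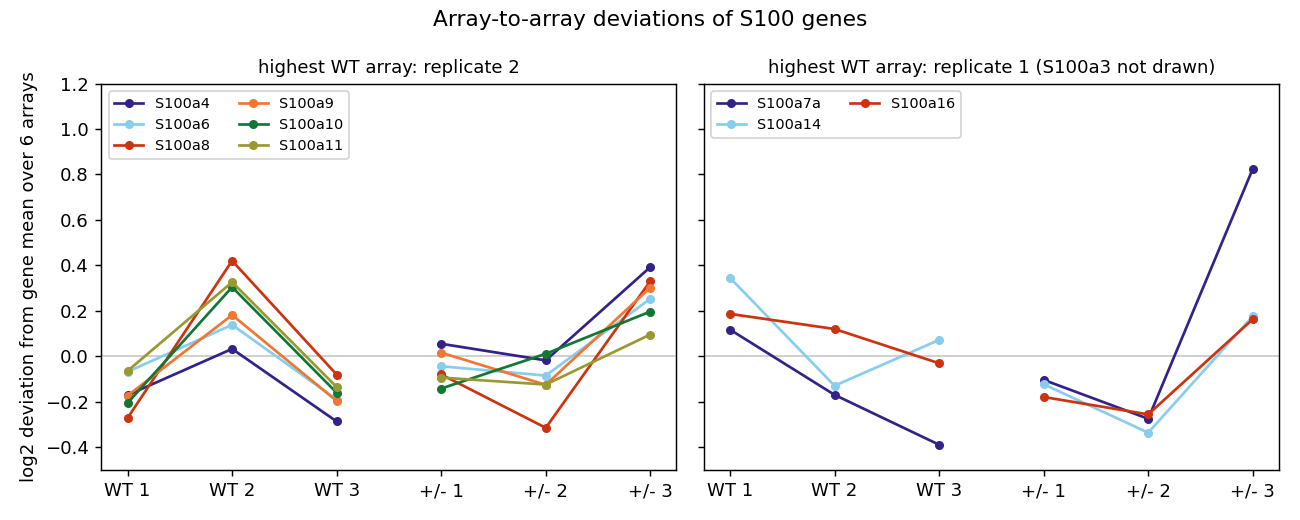
Log2 deviation of S100 genes from their own mean over the 6 arrays (y axis) by array (x axis). Lines join the points of a gene within a genotype and imply no order. Left, the 6 genes that are highest on WT replicate 2 within WT; right, S100a7a, S100a14 and S100a16, which are highest on WT replicate 1. All 9 are highest on FoxO1 +/- replicate 3 within their group.

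S100a14 and S100a16, neighbouring genes expressed in epithelia, were both on average lower in FoxO1 +/- wounds under every scaling tried. S100a14 was at 5.43, 4.95 and 5.16 in WT and at 4.96, 4.75 and 5.26 in FoxO1 +/- wounds. S100a16 was at 5.28, 5.22 and 5.06 in WT and at 4.92, 4.84 and 5.26 in FoxO1 +/- wounds. In these scaled levels FoxO1 +/- replicates 1 and 2 were below all WT arrays for S100a16, whereas replicate 3 was above 2 of them. Before scaling between arrays, replicate 3, the dimmest array, was also below them, at 34415 units against 42730 to 45678 in WT. For S100a14 the signals before scaling were 30021 to 34421 units in FoxO1 +/- and 35616 to 50539 in WT wounds. The differences in scaled level were -0.19 (SE 0.18, 95% interval -0.62 to 0.24, limma adjusted p 0.938) for S100a14 and -0.18 (SE 0.13, 95% interval -0.50 to 0.14, limma adjusted p 0.909) for S100a16. The second S100a16 probe differed by -0.10 (SE 0.13). Without FoxO1 +/- replicate 3 the S100a16 difference was -0.31, and S100a16 was then the 1 gene of the 10 with an unadjusted limma p under 0.05, which 6.11% of all genes had without that array.

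Keratinocyte markers are given beside both genes. The basal list, 7 of 7 tested, had mean levels of 4.44, 4.22 and 4.17 in WT and 4.22, 4.01 and 4.38 in FoxO1 +/- wounds, lowest on FoxO1 +/- replicate 2, as were S100a14 and S100a16. Its summed signal was 472 to 606 in WT and 412 to 603 in FoxO1 +/- wounds. The suprabasal list, 9 of 10 tested, had mean levels of 4.81, 4.45 and 4.57 and of 4.59, 4.56 and 4.94, and a summed signal of 449 to 602 and 536 to 704. In the basal list, where no gene had an unadjusted p under 0.05, Krt5 differed by -0.27 (SE 0.18) and the hemidesmosome gene Col17a1 by -0.18 (SE 0.24). In the suprabasal list 1 of 9 had one, Ivl, for the cornified envelope protein involucrin, at 0.38 (SE 0.14, limma adjusted p 0.781), and Krtdap followed at 0.27 (SE 0.13). Both lists were highest within the FoxO1 +/- group on replicate 3 and within WT on replicate 1, the arrays on which S100a14 and S100a16 were highest. Their part in these levels was not tested.

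S100a7a, the psoriasin relative of inflamed epidermis, had a dim probe, with signals of 68 to 118 units, though it was well above background on all 6 arrays. It was at -3.64, -3.92 and -4.14 in WT and at -3.86, -4.03 and -2.93 in FoxO1 +/- wounds. FoxO1 +/- replicate 3 stood 1.63 times above the highest of the other 5 arrays. The genotype difference was 0.30 (SE 0.31, 95% interval -0.45 to 1.05) with that array and -0.04 without it. By root mean square distance over the 6 arrays, the genes with the most similar profiles were Lce3c (0.056), a late cornified envelope gene, Unc93a (0.11) and Sprr2i (0.12), a small proline-rich cornified envelope gene. Lce3c was at 6.07 on FoxO1 +/- replicate 3 and at 4.78 to 5.33 on the other 5.

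S100a3, the cysteine-rich calcium-binding protein of the hair cuticle, differed by animal more than any other of the 10 genes. It was at 0.61 on WT replicate 1, at -2.27 and -2.26 on WT replicates 2 and 3, and at -2.31, -2.66 and -2.19 on the FoxO1 +/- arrays. WT replicate 1 was 6.94 times the highest of the other 5 arrays, which lay close together and whose genotypes overlapped in these scaled levels. The group means were therefore -1.31 ± 1.66 (SD, n = 3) and -2.38 ± 0.25 (SD, n = 3), a log2 difference of -1.08 (SE 0.79, 95% interval -2.99 to 0.84, limma adjusted p 0.909). Without WT replicate 1 the difference was -0.12. Of all genes tested, 0.408% spanned at least as many log2 units over the 6 arrays as S100a3.

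Hair genes were high on the same animal. The 3 genes with the profiles nearest to S100a3 were Gprc5d (distance 0.18), a receptor gene of the hard keratin tissues, Gm11567 (0.20) and the keratin-associated protein gene Krtap4-1 (0.22). Of 20 hair shaft and root sheath markers 15 were tested, and 9 of them passed the background flag on every array. Of the 15, 14 were highest on WT replicate 1, all but Msx2. Over all genes, 36.1% were highest on that array within WT, and the share over all 6 arrays was not counted. Krt33a, Krt34, Krt35, Krt82, Krt27 and Krt71 were kept through the WT arrays alone, the group that holds WT replicate 1. The list mean was 0.59 there and -3.27 to -2.71 on the other 5 arrays, and its summed signal was 56.1 on WT replicate 1, 4.55 and 5.0 on WT replicates 3 and 2, and 3.88 to 4.56 in FoxO1 +/- wounds. Krt32, Krt25 and Dsg4 were not well above background on all arrays of either genotype. The smallest p-values of the list, none under 0.05 unadjusted, belonged to Hoxc13, a regulator of hair keratins, at -1.28 on WT replicate 1 and -5.00 to -2.67 elsewhere, and the root sheath keratin gene Krt71, at 4.93 on WT replicate 1 and -6.43 to -3.30 elsewhere, where it passed the background flag on 1 FoxO1 +/- array. Padi3, also on this list, is the enzyme known from human hair to convert arginines of S100a3. It was at -0.33 on WT replicate 1 and at -2.88 to -2.28 elsewhere. The part of hair follicle tissue in the S100a3 level was not tested.

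Among receptors that bind S100 proteins, and the co-receptors of Tlr4, 0 of 9 tested had an unadjusted limma p under 0.05, against 6.25% of all genes. In FoxO1 +/- wounds 7 had a higher and 2 a lower mean, where 46.3% of all genes were lower. The 7 include Ager, whose probe was near background. The median log2 difference was 0.10 against 0.01 over all genes. Ly96, the partner that Tlr4 needs for signalling, had the smallest p in this list. It was at 1.92, 2.04 and 1.87 in WT and at 2.12, 2.07 and 2.17 in FoxO1 +/- wounds, a difference of 0.18 (SE 0.08, limma adjusted p 0.826). The genotypes did not overlap, as held for 6.9% of all genes upward. Cd36, a scavenger receptor, differed by 0.20 (SE 0.13). Tlr4 itself, the receptor through which calprotectin signals, differed by 0.10 (SE 0.15). Ager, the receptor for advanced glycation end products, had a probe near background, at 28 to 56 signal units and flagged as well above it on 3 WT and 2 FoxO1 +/- arrays, so no difference is given. Cd14 was at 7.01 on WT replicate 2, where S100a8 was also highest, and at 5.34 on WT replicate 1.

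Of 19 intracellular partners and modifying enzymes tested, 10 had a higher and 9 a lower mean, with a median of 0.01. The 1 of 19 with an unadjusted p under 0.05, which 6.25% of all genes had, was Tgm3, a transglutaminase of the cornified envelope and hair, at 0.15, 0.13 and 0.27 in WT and at -0.04, -0.07 and -0.22 in FoxO1 +/- wounds, a difference of -0.29 (SE 0.08, limma adjusted p 0.639). Cyba, a subunit of the NADPH oxidase to which calprotectin delivers arachidonic acid, differed by 0.17 (SE 0.07, limma adjusted p 0.826). Of 6 tested genes for large epidermal and hair proteins that begin with an S100 domain, 1 had an unadjusted p under 0.05, against 6.25% of all genes: Hrnr, for hornerin. Hrnr was at 1.27, 1.40 and 0.67 in WT and at 1.40, 2.0 and 2.32 in FoxO1 +/- wounds, a difference of 0.79 (SE 0.29, limma adjusted p 0.781), and FoxO1 +/- replicate 1 lay within the WT range. Tchh, for trichohyalin of the hair root sheath, was at 3.69 on WT replicate 1, the array on which S100a3 was high, and at -1.62 to -0.26 on the other 5.

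The remaining S100 genes showed no genotype difference past either threshold. Of the 7 on the list 6 were tested, 4 with a higher and 2 with a lower mean, and S100g, for the intestinal calcium carrier calbindin-D9k, passed the background flag on none of the arrays. The list also held S100pbp, for a protein that binds human S100P and is itself no S100 protein, which differed by -0.05 (SE 0.12). S100a13, which takes part in the release of growth factors without a signal sequence, differed by 0.09 (SE 0.08). S100b, a protein of Schwann cells, melanocytes and adipocytes, was at -0.49, -0.27 and 0.23 in WT and at -0.46, -0.12 and 0.08 in FoxO1 +/- wounds, a difference of 0.01 (SE 0.22). Adipocyte markers, 9 of 9 tested, all had a higher mean in FoxO1 +/- wounds, with a summed signal of 377 to 492 against 165 to 335 in WT. Of them 5 had an unadjusted p under 0.05, against 3.43% of all genes on the higher side, and none passed the adjusted threshold. They were the resistin gene Retn at 1.56 (SE 0.26, limma adjusted p 0.369), the adiponectin gene Adipoq at 0.94 (SE 0.31), Plin1 at 0.86 (SE 0.28) and Lipe at 0.63 (SE 0.19), for a lipid droplet protein and a lipase, and the fatty acid carrier Fabp4 at 0.58 (SE 0.22). Schwann cell and melanocyte markers, 10 of 10 tested, had sums of 14.4 to 17.1 in FoxO1 +/- and 14 to 19.9 in WT wounds. Of these 10 the pigment cell genes Pmel, at -0.96 (SE 0.32, limma adjusted p 0.732), and Tyrp1, at -1.06 (SE 0.41, limma adjusted p 0.798), had an unadjusted p under 0.05, against 2.83% of all genes on the lower side. The part of these cell types in the S100b level was not tested. S100a7l2 ranged from -2.50 to -0.67 in WT and from -3.51 to -1.38 in FoxO1 +/- wounds, with a difference of -0.73 (SE 0.70).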

How the data were processed

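RNA of 6 wound samples was hybridised to 1-colour Agilent arrays on 1 slide and in 1 scan. Per the file headers, the authors extracted the spot intensity with Agilent Feature Extraction 10.7.1.1, which subtracts background and detrends within an array; per the submitters' processing notes the version was 9.1. The authors' deposited value table holds the same intensity, within 0.497% at every spot. The flags for background, saturation and outlier spots, the other deposited columns used, are as in the file headers.

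Log2 processed signals were averaged per probe without outlier-flagged spots, and each array was scaled to its 75th percentile of non-control probes (55681 probes, 36 without a value left out). Symbols came from RefSeq accessions through a GRCm38 gene table; the design annotation is mm9, so no coordinates of probes are given. A probe was kept where all 3 arrays of a genotype flagged it as well above background (37902 probes), and the brightest kept probe stood for a gene (16407 genes). FoxO1 +/- minus WT was tested with limma 3.58.1 in R 4.3.3 (lmFit, eBayes, two-sided, Benjamini-Hochberg over all genes), and checked on simulated data. The number of arrays limits the precision. Slide row 2 held FoxO1 +/- replicates 2 and 3 only. The 10 genes and all lists were chosen with earlier results of these data known. Named genes of other lists are those with an unadjusted p under 0.05 and, where there are fewer than 2, the 2 with the smallest p. Tlr4, Ager, Cd14, S100b, S100g, S100pbp, Msx2, Krt32, Krt25, Dsg4 and the named binding partners were named after their values were seen, and lists of T lymphocyte and skeletal muscle markers, with no gene under that threshold among 7 and 8 tested, are not described. For genes spanning at least 1 log2 unit, the 3 nearest profiles outside the S100 family are named. Alternatives were background correction (normexp, offset 50, on the median signal, since the files used hold no mean signal), scaling, filter, probe choice, the value table, leaving out arrays, and blocks for replicate number and slide row.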

Additional observations from a re-analysis of the deposited data

How the results depend on the processing

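No S100 gene passed an adjusted p of 0.05 in limma under any alternative tried; the smallest adjusted p was 0.551, for S100a4. With quantile normalization S100a6 turned to -0.041 and S100a10 to -0.072. With slide row as a block, and equally within slide row 1, S100a6 was -0.0039 and S100a10 -0.12; row 2 holds no WT array, so both rest on FoxO1 +/- replicate 1, which is assumed to vary like the others. When each array was left out in turn the differences ran from -1.56 to -0.12 for S100a3, 0.16 to 0.37 for S100a4, -0.024 to 0.17 for S100a6, -0.042 to 0.51 for S100a7a, -0.22 to 0.15 for S100a8, 0.0080 to 0.25 for S100a9, -0.050 to 0.21 for S100a10, -0.17 to 0.059 for S100a11, -0.33 to -0.066 for S100a14 and -0.31 to -0.10 for S100a16. Without FoxO1 +/- replicate 2 the S100a8 difference was 0.10. The causes of these turns were not tested. The other alternatives, normexp background correction among them, kept the sign of all 10 differences. The median difference of the 10 genes moved under every alternative by less than the spread between arrays of their mean level, which is a coarse yardstick. It was -0.0007 in the main fit, -0.13 with quantile normalization and -0.11 with slide row as a block. Over all genes the median was 0.01, -0.01 and -0.004. With the replicate block the differences were the same by construction (-0.04 for S100a8), with adjusted p-values of 1.0. Deviations of same-numbered WT and FoxO1 +/- arrays correlated at -0.07, -0.14 and -0.30 across genes. Arrays of different number were not compared, so these values cannot tell whether same-numbered samples share more than a number. Over all genes the count past the adjusted threshold was 1, and it was 28 without WT replicate 2, 7 with slide row as a block, 4 within row 1, 3 without the filter, 2 with quantile normalization and 0 with normexp, with the percentile taken over detected probes, with the replicate block or without any other array, where limma's unadjusted p was under 0.05 for 678 to 1223 genes.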
